A study of Mus musculus with 24 samples.

Results

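Imprinted genes expressed in the brain were followed by name in the table of reads per gene: *Nap1l5*, *Ndn*, *Snrpn*, *Peg3*, *Sgce*, *Peg10*, *Grb10*, *Magel2*, *Cdkn1c* and *Impact*, 10 genes of the 24079 listed, each with 1 row. The table held 24 libraries from the mouse striatum, made from nucleus accumbens (Acb) or dorsal striatum (DS), of wild-type or rpS6P-/- mice. In rpS6P-/- mice, a constitutive knockin replaces the phosphorylatable serines of ribosomal protein S6 by alanine in every cell. They came from crosses of heterozygotes on a mixed C57Bl/6/Sv129/ICR background and were compared with wild-type littermates, males and females together, with no drug named for these samples and no age given for them in the sources used here. Each lysate came from pooled mice, and 2 kinds of RNA were sequenced: that of the whole lysate, and that of heavy polysomal fractions of a sucrose gradient, which hold mRNAs carrying several ribosomes. Each of the 8 combinations of region, genotype and kind of RNA had 3 biological replicates. The question asked of these genes was whether their levels and their presence on heavy polysomes differed between regions, between the kinds of RNA, and between genotypes.

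In an imprinted gene, the copy inherited from one parent is silenced by marks set in the germ line, so that expression comes mostly or wholly from the other copy. Several are strongly expressed in brain, and groups of them lie together on a few chromosomes, where a differentially methylated region controls neighbouring genes. *Ndn*, *Magel2* and *Snrpn* belong to the region lost in Prader-Willi syndrome, *Sgce* is mutated in myoclonus-dystonia, and *Grb10* is expressed from the maternal copy in most tissues but from the paternal copy in neurons. Read counts per gene do not separate the parental copies, so what follows concerns the summed level of both.

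On the GRCm38.p6 assembly, *Sgce* (chr6:4674350-4747204, minus strand) and *Peg10* (chr6:4747306-4760517, plus strand) stood head to head, their annotated GENCODE starts only 99 bases apart. *Ndn* (chr7:62348277-62349928) and *Magel2* (chr7:62376979-62381640) are both single-exon genes on the plus strand, their GENCODE annotations 26748 bases apart. *Snrpn* (chr7:59982495-60450177), *Peg3* (chr7:6703892-6730462) and *Cdkn1c* (chr7:143458339-143461059) lie on the minus strand of the same chromosome. In GENCODE, *Usp29* starts 147 bases from *Peg3* on the other strand. *Nap1l5* (chr6:58905233-58907126, minus strand) lies within *Herc3*, which runs on the opposite strand and shares none of its exon bases, and *Grb10* is at chr11:11930499-12037428 on the minus strand. The authors counted reads by strand, so a gene and a partner on the opposite strand were kept apart.

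Because heavy polysomes select mRNAs by the number of ribosomes they carry, the sequences shown are those where ribosomes begin reading 4 of the 5 members called in a comparison of heavy fractions with lysates, all but *Impact*, and *Peg10*, together with the place where they change frame in *Peg10*. Start codons are in capitals, with the bases around them as read from GENCODE M21 transcripts:
Nap1l5: gcagtagccATGgccgacc
Peg3: agtttcaagATGtaccatc
Grb10: caagtactaATGaacaacg
Sgce: aggccaagaATGctattat
Peg10: accgcagccATGgctgctg
Of the 9 members for which this window was read, 8 had a purine 3 bases before the start codon, the most conserved base of the Kozak context, and *Grb10* was the one without it. A G directly after the start codon was present in 3 of the 9, *Nap1l5*, *Peg10* and *Cdkn1c*. *Peg10* descends from a retrotransposon and is read in 2 overlapping frames through a backward slip of the ribosome. Its slippery heptamer, in capitals below, was the only GGGAAAC of its transcript on the sense strand:
Peg10 frameshift site: gaattcgccgccGGGAAACtccccggcccc
The first frame held 376 residues and ended 15 bases after the heptamer, and the fused frame held 1006. The same 7 letters occurred in 37.1% of the 1697 protein-coding transcripts within 10% of its length, so their presence alone is common. Coding length differed widely among the members, from 468 bases (156 residues) in *Nap1l5*, a single-exon relative of nucleosome assembly proteins, to 4713 bases (1571 residues) in *Peg3*, a zinc finger protein.

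Reads assigned to genes ranged from 9280589 to 20259509 in the 12 whole lysates and from 11109431 to 34703044 in the 12 heavy polysomal libraries. Between 15.2 and 26.1% of lysate reads, and 0.897 to 3.85% of those from heavy fractions, fell on *Bc1*, a neuronal noncoding RNA. Summed markers of medium spiny neurons, the principal striatal neuron, were at 4299 to 7165 in the Acb and 4408 to 7164 in the DS, in counts per 1000000 reads after TMM scaling of library sizes (CPM hereafter), so both regions carried the striatal signature. The knockin changes single residues of *Rps6*, so read counts could not check the genotype of a library. In bulk tissue, fewer cells of a type and less RNA per cell cannot be told apart.

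Levels of the members spanned over 2 orders of magnitude. Per kilobase of transcript, the order in wild-type Acb lysates was *Nap1l5* (322 ± 55.2 CPM per kb, SD, n = 3), *Ndn* (192 ± 37.4), *Impact* (132 ± 2.66), an inhibitor of the amino acid sensor kinase Gcn2, *Peg10* (54.4 ± 2.51), *Grb10* (21 ± 3.75), *Peg3* (21 ± 4.42), *Sgce* (15.6 ± 2.54), *Snrpn* (2.8 ± 0.806), *Magel2* (1.41 ± 0.574) and *Cdkn1c* (0.704 ± 0.215). Neighbours in this order did not overlap between libraries from *Nap1l5* to *Grb10*, whereas *Grb10*, *Peg3* and *Sgce* overlapped one with the next, as did *Snrpn*, *Magel2* and *Cdkn1c*. The place of *Ndn* rests on its RefSeq length of 1652 bases. With the GENCODE transcript of 3694 bases, chosen as an alternative after the values were seen, it was at 85.9 ± 16.7 CPM per kb, below every *Impact* library and above *Peg10*. In wild-type DS lysates *Nap1l5* (174 ± 18.3 CPM per kb), *Ndn* (114 ± 32.2) and *Impact* (91.1 ± 6.07) again led (*Ndn* at 51.1 ± 14.4, below *Impact*, with the GENCODE length), but *Peg10* stood seventh (5.97 ± 0.661), below *Peg3* (15 ± 0.399), *Grb10* (11.1 ± 2.1) and *Sgce* (9.17 ± 3.07). The places of *Sgce*, *Peg3* and *Grb10* also rest on 1 transcript each, of 1776, 8694 and 5061 bases. All annotated exons of these genes cover 10612, 13324 and 9089 bases.

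At the low end, few reads were counted and replicates could differ widely. In wild-type Acb heavy fractions, *Snrpn* was at 9.23, 1.44 and 5.19 CPM. *Cdkn1c*, the cell cycle inhibitor p57Kip2 and one of the maternally expressed members, had 0 to 67 reads per library, and *Magel2*, a MAGE family protein that binds ubiquitin ligases, had 0 to 190. *Snrpn*, which encodes the SmN protein of neuronal spliceosomes, had 0 to 357 reads, and its level is uncertain for a second reason. RefSeq places *Snurf* at chr7:59982495-60005199, on the same strand and with the same last base as *Snrpn*, and a read falling on both is left unassigned by the union mode of counting. *Snurf* itself was listed at 0 reads in 23 of 24 libraries and at 1 read in the other, so the counts of *Snrpn* cannot be taken as the expression of this locus. Replicate 2 of the rpS6P-/- Acb lysates had 0 reads of *Snrpn* and of *Cdkn1c* and was the library with most zeros, 28, among genes averaging 50 reads or more. All 10 members passed the minimum of 15 reads in all of the comparisons.

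**Figure D1:**
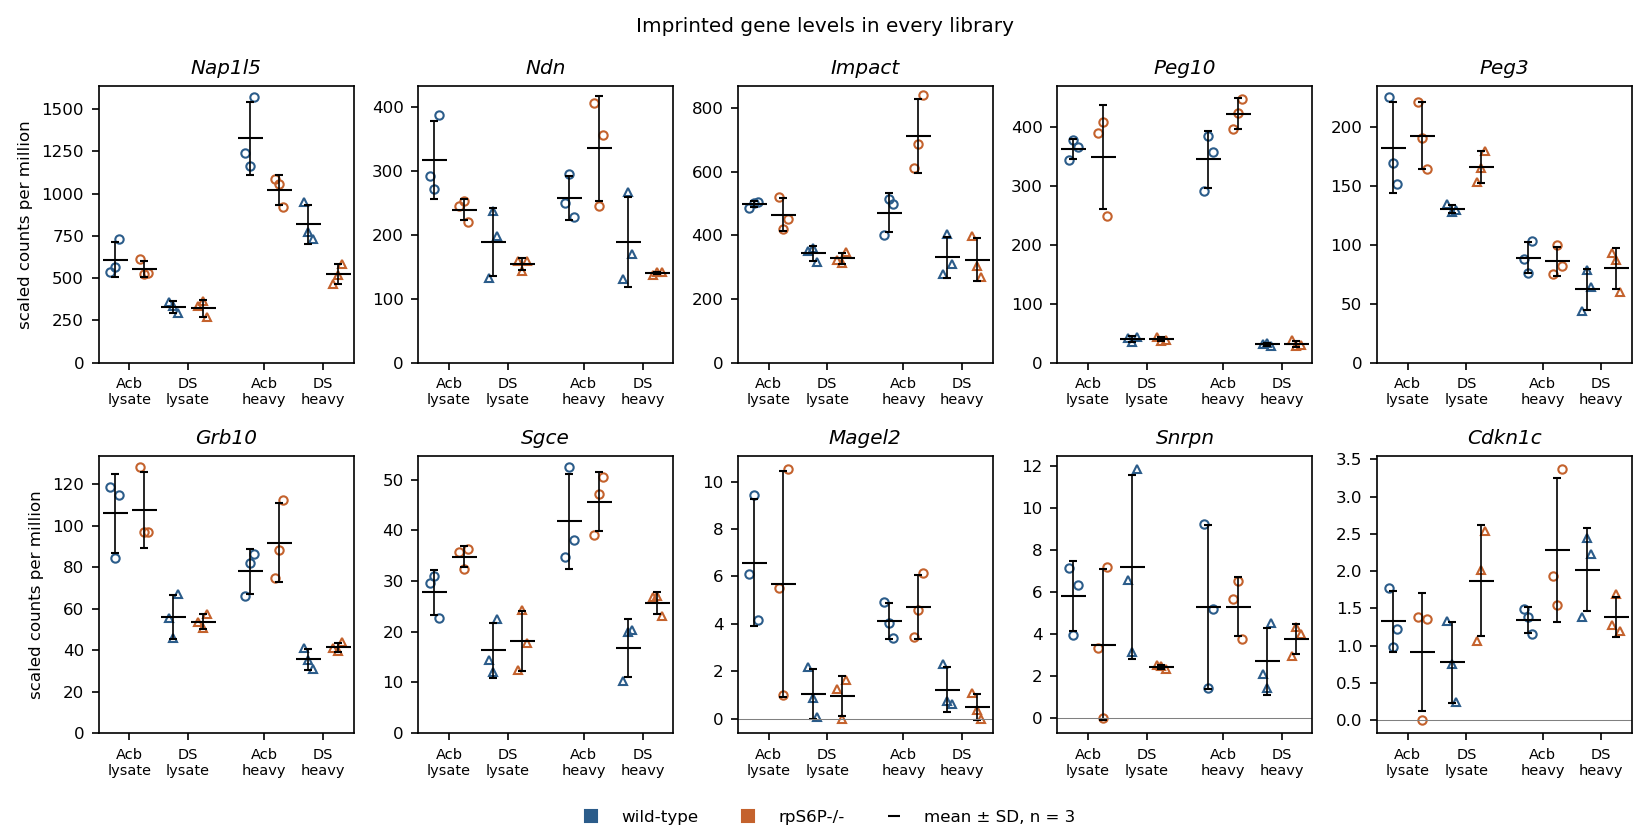
Level of each imprinted gene in every library, in CPM on linear axes, with wild-type in blue, rpS6P-/- in orange, Acb as circles, DS as triangles, and bars for the mean ± SD of 3 replicates; whole lysates are on the left and heavy polysomal fractions on the right of each panel. *Peg10* separated the regions most clearly, at 248 CPM or more in every Acb library and 43.4 CPM or less in every DS library, and *Nap1l5* and *Peg3* shifted in opposite directions between lysates and heavy fractions.

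The Acb held more mRNA of most of these genes than the DS. In wild-type lysates 8 of the 10 members were higher in the Acb and 0 were lower, by 1.39-fold for *Peg3* to 9.07-fold for *Peg10*, whereas 6.54% of the 15557 genes tested were called higher and 6.15% lower. In rpS6P-/- lysates, from other mice, 6 of 10 were higher and 0 lower (4.84% of all genes were called higher and 6.03% lower). Heavy polysomal fractions of the same lysates gave 5 of 10 higher in wild-type (4.72% of all genes) and 7 of 10 in rpS6P-/- mice (7.89%), again with 0 lower (3.43% and 10.7%). The median log2 fold change of the members, Acb over DS, was 0.76 and 0.70 in wild-type and rpS6P-/- lysates and 0.88 and 1.05 in the heavy fractions, against medians of all genes of 0.0057, 0.0031, 0.031 and 0.012. Acb and DS libraries did not overlap for 8 and 6 members in lysates and for 5 and 7 in heavy fractions, wild-type first (27.3%, 25.9%, 26.9% and 36.4% of all genes).

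*Peg10* differed most. Its lysate level was 344, 377 and 366 CPM in the wild-type Acb and 41.1, 34.9 and 43.4 CPM in the wild-type DS. In rpS6P-/- lysates it was 390.0, 409 and 248 CPM in the Acb and 43.3, 37.2 and 38.7 CPM in the DS. Every Acb library was thus far above every DS library, including the single lower Acb lysate, replicate 3 of the rpS6P-/- mice. Heavy polysomal fractions gave 292, 385 and 357 CPM against 30.9, 33.8 and 27.9 CPM in wild-type mice and 395, 423 and 448 CPM against 37.8, 28.1 and 29.5 CPM in rpS6P-/- mice. The log2 fold change was 3.18 (SE 0.132) in wild-type lysates, 3.12 (SE 0.142) in rpS6P-/- lysates, 3.54 (SE 0.176) in wild-type heavy fractions and 3.72 (SE 0.191) in rpS6P-/- heavy fractions, with an adjusted p of 2.37e-22, 1.08e-19, 2.67e-09 and 7.47e-11 (edgeR quasi-likelihood test, Benjamini-Hochberg).

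*Sgce*, the epsilon-sarcoglycan of muscle and neuronal membranes, starts next to *Peg10* and was also higher in the Acb, but by much less. Its lysate level was 29.5, 31.1 and 22.6 CPM in the wild-type Acb and 14.4, 12 and 22.4 CPM in the wild-type DS, the lowest Acb library being just above the highest of the DS. The log2 fold change was 0.77 (SE 0.242, edgeR adjusted p 0.0267) in wild-type lysates, and leaving out Acb replicate 1 or 2 or DS replicate 1 or 2 each ended this call (adjusted p 0.108, 0.131, 0.131 and 0.177 with edgeR). It was 0.93 (SE 0.237, edgeR adjusted p 0.0057) in rpS6P-/- lysates, where the call ended without DS replicate 1 (edgeR adjusted p 0.0823). Heavy polysomal fractions showed 1.35 (SE 0.255) in wild-type and 0.82 (SE 0.19) in rpS6P-/- mice, with edgeR adjusted p of 0.00278 and 0.0043. The ratio of *Peg10* to *Sgce* reads had a geometric mean of 11.4 in the 6 Acb lysates (range 6.83 to 16.2). In the 6 DS lysates it was 2.39 (1.53 to 3.49), a log2 difference of 2.25. In heavy fractions the ratio was 8.80 in the Acb (7.34 to 10.1) and 1.54 in the DS (1.04 to 3.03), a log2 difference of 2.52. This ratio was chosen after the values of both genes had been seen, so no p-value is given for it.

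*Grb10*, an adaptor protein that restrains signalling of the insulin and insulin-like growth factor receptors, was higher in the Acb in all 4 comparisons. Lysates of wild-type mice held 119, 84.3 and 115 CPM in the Acb and 55.3, 45.9 and 67.1 CPM in the DS, and those of rpS6P-/- mice 129, 97.3 and 96.9 CPM and 53.6, 50.5 and 57.4 CPM. No Acb lysate overlapped a DS lysate. The log2 fold changes were 0.92 (SE 0.155) and 0.99 (SE 0.145) in lysates and 1.19 (SE 0.182) and 1.14 (SE 0.183) in heavy fractions, wild-type first, with edgeR adjusted p of 2.66e-05, 2.59e-06, 0.000448 and 0.000208.

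*Nap1l5* and *Impact*, both abundant, were also higher in the Acb throughout. *Nap1l5* was at 534, 566 and 729 CPM in wild-type Acb lysates and 360.0, 336 and 292 CPM in wild-type DS lysates, with no overlap, and its log2 fold changes lay between 0.75 (SE 0.162, edgeR adjusted p 0.00693, wild-type heavy) and 0.96 (SE 0.164, edgeR adjusted p 0.000347, rpS6P-/- heavy). Only the wild-type heavy call of *Nap1l5* depended on 1 library, Acb replicate 3 (edgeR adjusted p 0.0612 without it). *Herc3*, the gene around it, went the other way in lysates, at 101, 88.6 and 67.6 CPM in the wild-type Acb and 113, 130.5 and 129 CPM in the wild-type DS (log2 fold change -0.53, SE 0.142, edgeR adjusted p 0.00713). *Impact* was at 486, 501 and 505 CPM against 350.0, 361 and 317 CPM in wild-type lysates, with a log2 fold change of 0.53 (SE 0.108) there, 0.49 (SE 0.0995) in rpS6P-/- lysates and 1.13 (SE 0.182) in rpS6P-/- heavy fractions (edgeR adjusted p 0.000376, 0.00041 and 0.000196). In wild-type heavy fractions the regions overlapped for *Impact*, and the log2 fold change of 0.57 (SE 0.169, edgeR adjusted p 0.0466) lost its call when Acb replicate 2 or 3, or DS replicate 1 or 3, was left out (edgeR adjusted p 0.161, 0.176, 0.185 and 0.160).

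Of the Prader-Willi region genes, *Ndn*, a MAGE family protein of differentiated neurons, was at 292, 272 and 388 CPM in wild-type Acb lysates and 132, 237 and 198 CPM in wild-type DS lysates, with no overlap. It was higher in the Acb in wild-type lysates (log2 fold change 0.74, SE 0.145, edgeR adjusted p 0.000228), in rpS6P-/- lysates (0.63, SE 0.11, edgeR adjusted p 5.83e-05) and in rpS6P-/- heavy fractions (1.25, SE 0.19, edgeR adjusted p 0.000111). In wild-type heavy fractions it was at 250.3, 295 and 229 CPM against 130.3, 267 and 171 CPM, overlapping, with an edgeR adjusted p of 0.179, or 0.00914 without DS replicate 2. The wild-type lysate difference of *Ndn* was not called by DESeq2 (adjusted p 0.0681). *Magel2*, its neighbour, had few reads: 110, 115 and 34 in the 3 wild-type Acb lysates and 41, 13 and 1 in the DS, or 6.11, 9.45 and 4.16 CPM against 2.19, 0.889 and 0.084 CPM. Its log2 fold change of 2.58 (SE 0.674) was called (edgeR adjusted p 0.00625), but not without Acb replicate 2 (edgeR adjusted p 0.103). In rpS6P-/- lysates replicate 2 of the Acb held 9 reads and replicate 2 of the DS 0, and the log2 fold change of 2.53 (SE 0.878) had an edgeR adjusted p of 0.057, or 0.0131 without that Acb library and 0.0478 without DS replicate 3. rpS6P-/- heavy fractions held 57, 176 and 122 reads in the Acb and 18, 11 and 0 in the DS (log2 fold change 3.32, SE 0.767, edgeR adjusted p 0.00429), and wild-type ones 190, 81 and 94 and 25, 11 and 15 (1.83, SE 0.628, edgeR adjusted p 0.0886, or 0.0151 without DS replicate 1).

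*Peg3* was higher in the Acb in wild-type lysates, at 225, 169.6 and 152 CPM against 134, 127 and 129 CPM (log2 fold change 0.48, SE 0.133, edgeR adjusted p 0.0106), where Acb replicate 1 stood above the other two. Without that library the edgeR adjusted p was 0.185, with a log2 fold change of 0.30, and without DS replicate 2 it was 0.0502. The other 3 comparisons gave 0.20 (SE 0.118), 0.58 (SE 0.201) and 0.092 (SE 0.193) in rpS6P-/- lysates, wild-type heavy and rpS6P-/- heavy fractions, none called, although wild-type heavy fractions without DS replicate 2 had an edgeR adjusted p of 0.0268. *Snrpn* and *Cdkn1c* were not called in any regional comparison, and at their depth the 95% interval of the log2 fold change in wild-type lysates ran from -1.17 to 0.56 and from -1.77 to 3.26.

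**Figure D2:**
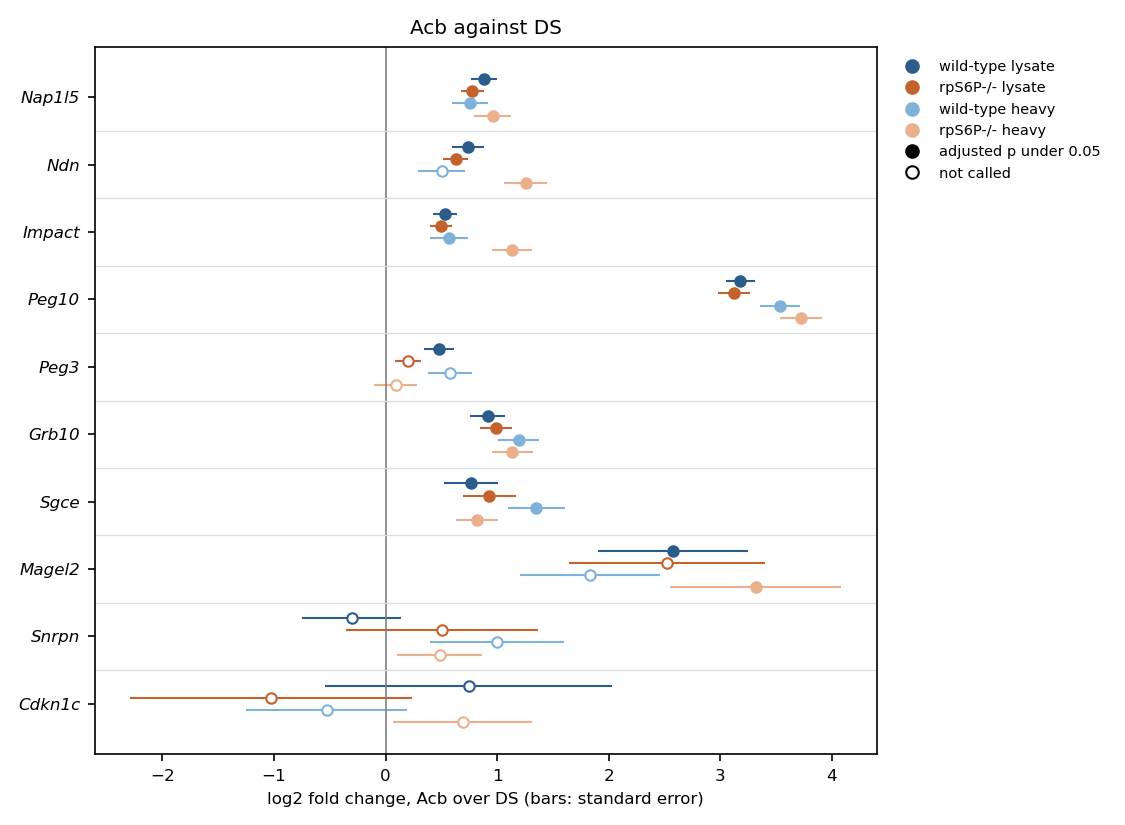
Log2 fold change of each imprinted gene, Acb over DS, in lysates and heavy polysomal fractions of wild-type and rpS6P-/- mice; points are edgeR estimates, bars their standard errors, and filled points had an adjusted p under 0.05. All filled points lie to the right of 0, with *Peg10* between 3.12 and 3.72 in the 4 comparisons.

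Markers of other cells also differed between the dissected regions. The summed level of 8 cortical excitatory neuron markers ranged from 71.2 to 219.8 CPM in the 12 Acb libraries and from 753 to 1056 CPM in the 12 DS libraries. The 12 markers of septal and hypothalamic neurons summed to 33.6 to 102 CPM in the Acb and 9.09 to 20.2 CPM in the DS. Of these, *Zic1* was at 19.6 to 49.5 CPM against 4.82 to 11.5 CPM and *Gal* at 0.548 to 25.3 CPM against 0 to 0.838 CPM. Among the hypothalamic peptide genes, *Trh* was at 6.33 to 13.8 CPM in the Acb and 1.71 to 5.67 CPM in the DS, without overlap, *Oxt* (oxytocin) at 1.42 to 19.4 against 0 to 2.04 CPM (medians 6.29 and 0.0927), *Avp* (vasopressin) at 0.444 to 8.67 against 0 to 3.71 CPM (medians 1.67 and 0.0887) and *Pomc* at 0.251 to 3.45 against 0 to 2.85 CPM (medians 1.05 and 0.384). The other 6 of the list, *Gnrh1*, *Hcrt*, *Pmch*, *Agrp*, *Sim1* and *Otp*, had medians of 0 to 0.226 CPM in both regions, and *Hcrt* was at 0 in all Acb libraries. Choroid plexus markers summed to 36.0 to 75.6 CPM in the Acb and 11.6 to 20.4 CPM in the DS, those of microglia to 229.8 to 417 against 140.2 to 278, of astrocytes to 1773 to 3108 against 1063 to 2139, of oligodendrocytes to 3126 to 5902 against 2787 to 4949, and of endothelial and mural cells to 9.90 to 36.9 against 14.9 to 33.8. Their part in the regional differences was not tested.

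A wider list of 50 imprinted genes was counted for comparison. In wild-type lysates 14 of the 44 tested were higher in the Acb and 3 lower (6.54% and 6.15% of all genes), and in rpS6P-/- lysates 13 of 42 were higher and 2 lower (4.84% and 6.03%). The calcitonin receptor gene *Calcr* was at 8.83 to 15.1 CPM in wild-type Acb lysates and at 0 reads in all 3 of the DS, at least 55.6-fold higher when the DS is set to 3 reads per library. *Dlk1*, a membrane protein related to Notch ligands, was at 98.0 to 111 CPM against 2.05 to 2.44 CPM (log2 fold change 5.48, SE 0.208, edgeR adjusted p 2.61e-23). *Nnat*, a small membrane protein of developing neurons, was at 413 to 516 CPM against 119 to 136 CPM (log2 fold change 1.86, SE 0.119, edgeR adjusted p 5.99e-16). Lower in the Acb were *Osbpl5*, *Herc3* and the noncoding *Peg13*, by log2 fold changes of -0.86, -0.53 and -0.33. Heavy fractions of wild-type mice had 11 of 44 higher and 1 lower (4.72% and 3.43% of all genes), and those of rpS6P-/- mice 9 of 46 higher and 3 lower (7.89% and 10.7%). *Asb4* was there at 3.21 to 4.39 CPM in the wild-type Acb and at 0 reads in the DS, at least 18.1-fold higher by the same floor.

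In the comparison of heavy polysomes with the lysate, *Nap1l5* and *Peg3* were called in all 4 combinations of region and genotype, in opposite directions, and no other member was. The share of all genes called in all 4 was not counted. Among all genes tested, the log2 fold change of *Nap1l5* lay between the 81.6 and 94.1 percentiles in the 4 combinations. That of *Peg3* lay between the 8.45 and 9.50 percentiles. In the wild-type Acb 2 of the 10 members were higher in heavy fractions and 2 lower (13% and 12.9% of the 16043 genes tested). The rpS6P-/- Acb had 2 higher and 1 lower (7.7% and 9.5% of all genes), the wild-type DS 1 higher and 2 lower (12.8% and 11.5%), and the rpS6P-/- DS 1 higher and 1 lower (13.8% and 14.8%). In all, 4, 3, 3 and 2 members were called, against 25.9%, 17.2%, 24.3% and 28.6% of all genes, and the lysate and heavy libraries of 3, 5, 5 and 5 members did not overlap (38.4%, 34%, 37.7% and 40.1% of all genes), so the members as a list stayed near the background. The median log2 fold change of the members, heavy over lysate, was -0.11, 0.42, -0.059 and -0.27 in this order, against medians of all genes between 0.0010 and 0.030.

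*Nap1l5* rose in heavy fractions in each region and genotype. Its level went from 534, 566 and 729 CPM in wild-type Acb lysates to 1242, 1166 and 1572 CPM in heavy fractions, and from 360.0, 336 and 292 CPM to 951, 772 and 730.0 CPM in the wild-type DS. In rpS6P-/- mice it went from 611, 522 and 529.8 CPM to 1087, 1055 and 923 CPM in the Acb and from 334, 363 and 267 CPM to 467, 519 and 586 CPM in the DS. Lysate and heavy libraries did not overlap in any of the 4 groups. The log2 fold changes were 1.12 (SE 0.147), 0.87 (SE 0.148), 1.28 (SE 0.146) and 0.67 (SE 0.132) for the wild-type Acb, rpS6P-/- Acb, wild-type DS and rpS6P-/- DS, with edgeR adjusted p of 3.58e-06, 0.000163, 2.01e-07 and 5.28e-05. *Herc3*, on the other strand of the same locus, was lower in heavy fractions, by log2 fold changes of -0.93, -0.80 and -0.93 in the wild-type Acb, wild-type DS and rpS6P-/- DS (edgeR adjusted p 0.000159, 0.000356 and 1.47e-06), and by -0.50 in the rpS6P-/- Acb, not called (edgeR adjusted p 0.0559).

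*Peg3* fell in heavy fractions in each region and genotype. Lysates of the wild-type Acb held 225, 169.6 and 152 CPM and their heavy fractions 88, 76.2 and 103 CPM, and those of the wild-type DS 134, 127 and 129 CPM and 44.1, 78.1 and 63.6 CPM. In rpS6P-/- mice the Acb went from 221, 191 and 164 CPM to 75.4, 99.6 and 82.2 CPM and the DS from 153, 165 and 179.7 CPM to 92.6, 87.3 and 60.2 CPM. Its groups did not overlap in any of the 4 comparisons either. The log2 fold changes were close to each other, at -1.04 (SE 0.162), -1.18 (SE 0.172), -1.11 (SE 0.179) and -1.09 (SE 0.151) in the same order, with edgeR adjusted p of 2.71e-05, 2.55e-05, 2.49e-05 and 5.88e-08.

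*Grb10* fell in heavy fractions of wild-type mice, by log2 fold changes of -0.45 (SE 0.162, edgeR adjusted p 0.0428) in the Acb and -0.69 (SE 0.195, edgeR adjusted p 0.00837) in the DS. In the DS it was at 55.3, 45.9 and 67.1 CPM in lysates and 41, 35.1 and 30.7 CPM in heavy fractions, with no overlap, while in the Acb the groups overlapped. Values in rpS6P-/- mice were -0.24 (SE 0.182) and -0.41 (SE 0.169), not called, and the test of a genotype difference in loading gave 0.21 (SE 0.245) in the Acb and 0.32 (SE 0.254) in the DS, not called either. *Sgce* rose in the wild-type Acb, from 29.5, 31.1 and 22.6 CPM to 34.8, 52.4 and 38 CPM (log2 fold change 0.58, SE 0.2, edgeR adjusted p 0.0317). When the dependence of the values on transcript length was removed from each library, neither gene was called in wild-type mice: *Grb10* had log2 fold changes of -0.25 in the Acb and -0.38 in the DS and *Sgce* one of 0.32 (edgeR adjusted p 0.273, 0.176 and 0.267). Leaving out any 1 of the 3 wild-type Acb replicates, lysate and heavy library together, also ended the call of *Sgce*. Leaving out replicate 1 or 3 ended that of *Grb10* in the Acb, and replicate 3 that of *Grb10* in the DS (edgeR adjusted p from 0.0587 to 0.469 over these fits).

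*Impact* rose in heavy fractions of the rpS6P-/- Acb, from 521, 421 and 449.8 CPM to 612, 688 and 839 CPM (log2 fold change 0.61, SE 0.157, edgeR adjusted p 0.00793), with an edgeR adjusted p of 0.145 when replicate 2, lysate and heavy library together, was left out. The wild-type Acb, wild-type DS and rpS6P-/- DS gave -0.082, -0.089 and -0.06, not called. *Peg10*, whose frameshift joins its 2 frames, had log2 fold changes of -0.076 (95% interval -0.35 to 0.20) and 0.26 (-0.073 to 0.60) in the wild-type and rpS6P-/- Acb and -0.40 (-0.79 to -0.011) and -0.36 (-0.73 to 0.0096) in the DS, none called. With the length trend removed, its value in the rpS6P-/- Acb was 0.51 (edgeR adjusted p 0.0258). *Ndn*, *Magel2*, *Cdkn1c* and *Snrpn* were not called in any of the 4 groups. *Ndn* was nearest in the rpS6P-/- Acb (0.47, SE 0.173, edgeR adjusted p 0.0604; DESeq2 adjusted p 0.0449), and in the wild-type Acb it had the other sign (-0.30, SE 0.152), called without both libraries of replicate 2 (edgeR adjusted p 0.0407). With each heavy fraction paired to its own lysate, *Snrpn* was called lower in the wild-type DS (log2 fold change -1.40, edgeR adjusted p 0.0346), where the unpaired edgeR adjusted p was 0.0522.

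The list of 50 other imprinted genes was counted in heavy fractions too. *Rian*, a noncoding RNA of the *Dlk1* cluster, was at 538 to 599.8 CPM in wild-type Acb lysates and 206 to 299 CPM in heavy fractions (log2 fold change -1.16, SE 0.146, edgeR adjusted p 2.05e-06). In all, 6 of 43 tested were higher and 9 lower in the wild-type Acb (13% and 12.9% of all genes), 5 and 8 of 44 in the rpS6P-/- Acb (7.7% and 9.5%), 4 and 9 of 43 in the wild-type DS (12.8% and 11.5%), and 8 and 11 of 43 in the rpS6P-/- DS (13.8% and 14.8%). The balance of the directions was not tested. *Igf2r*, a large receptor that binds insulin-like growth factor 2, was lower in the wild-type Acb (log2 fold change -1.504, SE 0.222, edgeR adjusted p 1.39e-05). *Commd1*, a short protein of endosomal sorting, was higher in the wild-type DS (1.38, SE 0.207, edgeR adjusted p 9.74e-06).

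**Figure D3:**
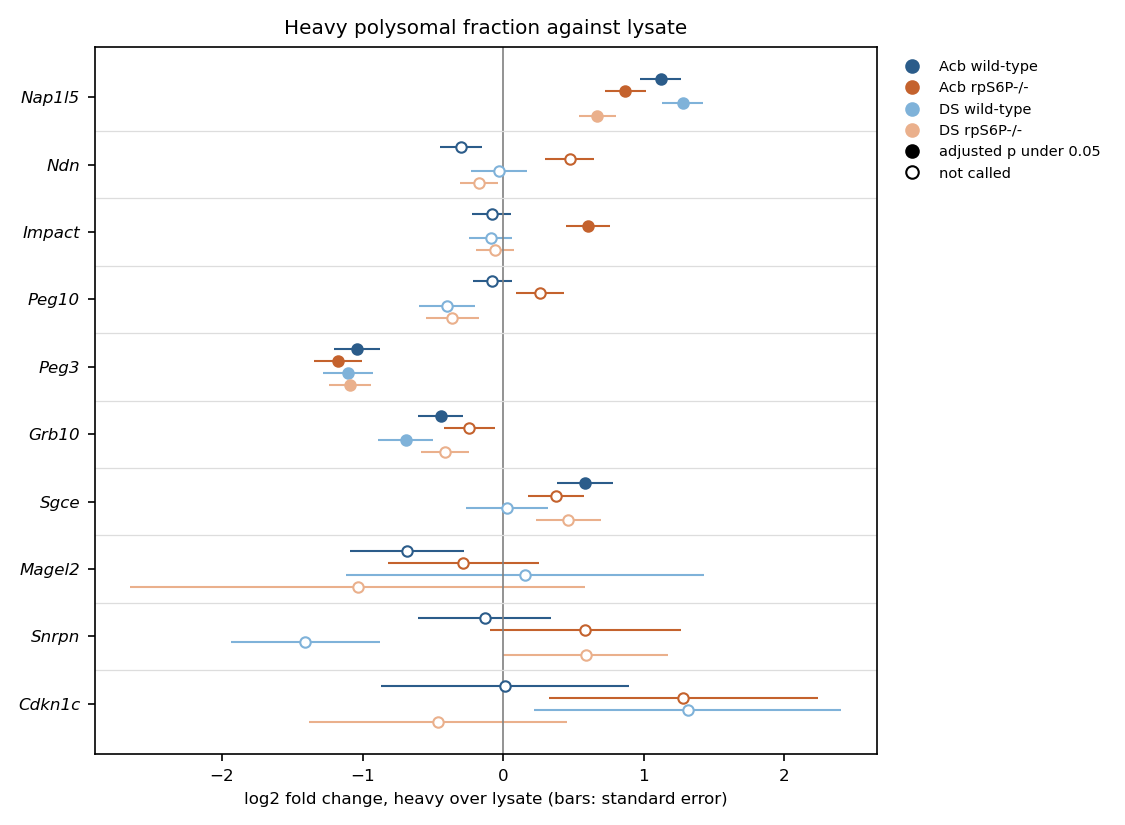
Log2 fold change of each imprinted gene, heavy polysomal fraction over whole lysate, in the Acb and DS of both genotypes; points are edgeR estimates, bars their standard errors, and filled points had an adjusted p under 0.05. *Nap1l5* lies between 0.67 and 1.28 and *Peg3* between -1.18 and -1.04, filled in all 4 groups.

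Genotype was compared last, within each region and kind of RNA. With edgeR, 0 of the 10 members had an adjusted p under 0.05 in any of the 4 comparisons, where all genes gave 0% in heavy fractions of the Acb, 0.0065% in Acb lysates, 0.044% in heavy fractions of the DS and 0.122% in DS lysates. At an unadjusted p under 0.05 the members counted 2, 1, 3 and 3 (21.7%, 2.96%, 6.42% and 9.07% of all genes), and the genotypes did not overlap for 4, 2, 2 and 2 members (24.5%, 8.33%, 11.6% and 13.7% of all genes). The median log2 fold change of the members, rpS6P-/- over wild-type, was 0.22, -0.12, 0.055 and -0.061 in the same order, against medians of all genes from -0.0088 to 0.030. The study, with DESeq2, reported many genes differing between genotypes in heavy fractions of the Acb and few in those of the DS.

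*Impact* came nearest to the threshold in heavy fractions of the Acb, with 402, 514 and 497 CPM in wild-type and 612, 688 and 839 CPM in rpS6P-/- mice. The genotypes did not overlap there. Its log2 fold change was 0.60 (SE 0.161, 95% interval 0.28 to 0.91, edgeR adjusted p 0.106), and the Wald test of DESeq2 called it (0.59, adjusted p 0.0121). In Acb lysates *Impact* was at 486, 501 and 505 CPM and 521, 421 and 449.8 CPM, overlapping (-0.10, SE 0.111), and in the DS the log2 fold change was 0.018 (SE 0.179) in heavy fractions and -0.081 (SE 0.095) in lysates.

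*Nap1l5* was lower in every rpS6P-/- heavy library than in every wild-type one of the same region. In heavy fractions of the DS it was at 951, 772 and 730.0 CPM in wild-type and 467, 519 and 586 CPM in rpS6P-/- mice (log2 fold change -0.59, SE 0.167, edgeR adjusted p 0.338; DESeq2 -0.60, adjusted p 0.0387). In those of the Acb it was at 1242, 1166 and 1572 CPM and 1087, 1055 and 923 CPM (log2 fold change -0.37, SE 0.153, edgeR adjusted p 0.178). Lysates overlapped between genotypes, with log2 fold changes of -0.14 (SE 0.114) in the Acb and -0.051 (SE 0.103) in the DS. The study, which used DESeq2, names *Nap1l5* among the genes differing between genotypes in heavy fractions of the DS.

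*Peg3* was at 134, 127 and 129 CPM in wild-type and 153, 165 and 179.7 CPM in rpS6P-/- lysates of the DS, without overlap (log2 fold change 0.33, SE 0.109, edgeR adjusted p 0.249; DESeq2 0.34, adjusted p 0.0461). In Acb lysates the value was 0.074 (SE 0.139). *Ndn* was at 292, 272 and 388 CPM in wild-type and 245, 253 and 221 CPM in rpS6P-/- Acb lysates (log2 fold change -0.40, SE 0.126, unadjusted p 0.00237 and adjusted p 0.9996 with edgeR) and showed the opposite sign in heavy fractions of the Acb (0.39, SE 0.188, edgeR adjusted p 0.244). In DS lysates *Ndn* gave -0.31 (SE 0.126, edgeR adjusted p 0.428), or -0.51 with an edgeR adjusted p of 0.0337 without wild-type replicate 1. *Peg10*, with its regional difference of about 3 log2 units or more, had genotype values of 0.30 (95% interval -0.0054 to 0.60), -0.055 (-0.31 to 0.20), 0.092 (-0.33 to 0.52) and -0.015 (-0.34 to 0.31) in heavy fractions and lysates of the Acb and then of the DS.

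**Figure D4:**
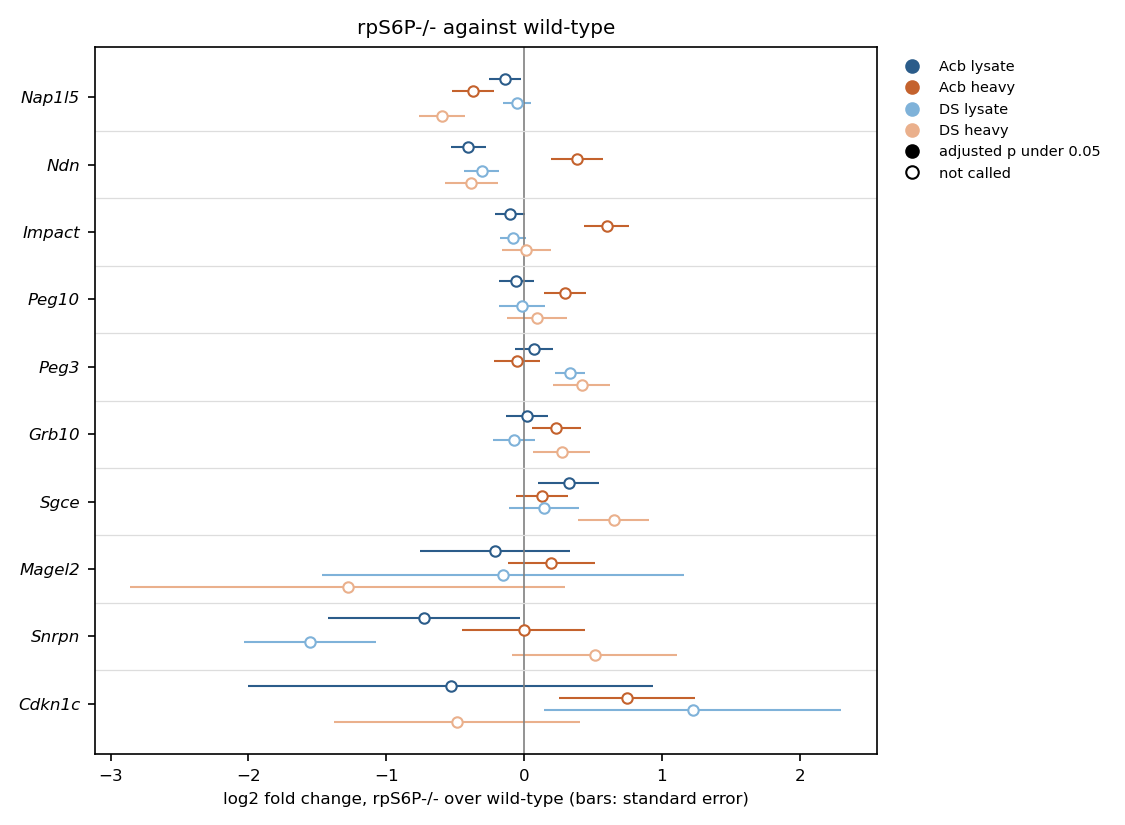
Log2 fold change of each imprinted gene, rpS6P-/- over wild-type, in lysates and heavy polysomal fractions of each region; points are edgeR estimates and bars their standard errors. No point is filled, since no member had an edgeR adjusted p under 0.05, and the widest bars belong to *Magel2*, *Cdkn1c* and *Snrpn*, the members with fewest reads.

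The change between genotypes in polysome loading, that is, of heavy over lysate, was tested as an interaction over the 12 libraries of a region, and 0 of the 10 members were called in either region (0% of 16687 genes in the Acb and 0% of 16544 in the DS with edgeR, with 11.9% and 4.9% at an unadjusted p under 0.05, and 2 members in each region). The study tested the ratio of heavy to lysate counts with another method, Xtail, and reported many altered genes in the Acb and fewer in the DS. In the Acb, *Ndn* gave 0.78 (SE 0.234, edgeR adjusted p 0.241) and *Impact* 0.70 (SE 0.207, edgeR adjusted p 0.238). In the DS, *Nap1l5* gave -0.57 (SE 0.196, edgeR adjusted p 0.934) and the poorly counted *Snrpn* 2.03 (SE 0.778, edgeR adjusted p 0.99998). Whether the genotype difference in heavy fractions was unequal between regions was tested too, again with 0 of 10 called (0.00592% of 16880 genes; 2 members, *Ndn* and *Impact*, at an unadjusted p under 0.05, as for 13.8% of genes). *Impact* differed by 0.60 (SE 0.25, edgeR adjusted p 0.28) and *Ndn* by 0.78 (SE 0.293, edgeR adjusted p 0.229), Acb minus DS. The loading of wild-type mice did not pass the test of a difference between regions for any member (0 of 10; 0% of 16684 genes with edgeR, and 0 members at an unadjusted p under 0.05, as for 4.6% of genes). *Peg3* and *Nap1l5* had intervals of -0.44 to 0.51 and -0.60 to 0.22 on the log2 scale in that comparison.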

How the data were processed

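Reads per gene were analysed for 24 libraries. The authors aligned stranded, poly(A)-selected single-end reads to mm10 (TopHat2 2.0.13, Bowtie2 2.2.3) and counted them with HTSeq 0.6.1p1 in union mode on the opposite strand. The values they deposited are raw counts, neither normalized nor filtered. Each library's group came from its title.

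Genes with fewer than 15 reads over a comparison's libraries were removed, and groups compared with edgeR 4.0.16 (TMM scaling, quasi-likelihood F test, legacy settings) in R 4.3.3, at a Benjamini-Hochberg adjusted p under 0.05 over all genes tested. CPM values were TMM-scaled over all 24 libraries. Intervals are the estimate ± 1.96 SE. Loading and region differences between genotypes were interaction terms. Lengths and transcript sequences came from GENCODE M21 and positions from RefSeq (GRCm38.p6, the build of mm10). Single-exon members used their RefSeq span as length. *Magel2*, *Cdkn1c* and *Snrpn* had the fewest reads and the largest standard errors. Only the edgeR and DESeq2 fits were tested on simulated counts, for some of the comparisons.

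Members, gene lists and comparisons were chosen with earlier results of these data known. All 10 members are named; of 50 further imprinted genes, those named were among the 3 largest log2 fold changes per direction, after asking for separate groups, a mean of 50 reads or more and an adjusted p under 0.05, and *Herc3* and *Snurf* were eligible as overlapping genes. Alternatives were DESeq2 size factors, filterByExpr, no filter beyond 1 read, DESeq2 1.42.0's Wald test, a replicate block, a transcript length trend removed (loess, span 0.5), both together, all 24 libraries in 1 fit, and leaving out each replicate. In loading comparisons, a left-out replicate took its lysate and heavy library together. A heavy fraction and its lysate share mice through the study's methods, so their numbers pair them, although their residuals correlated by only -0.038 to 0.074 (0 of 12 pairs above 0.1). Whether numbers shared between regions mark common mice is not stated in the sources used here, and those shared between genotypes mark none. Markers used 8 lists; 11 of 12 medium spiny neuron symbols and all symbols of the others were in the table. Figures used matplotlib 3.10.9.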

Additional observations from a re-analysis of the deposited data

How the results depend on the processing

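Of the 38 differences called among 160 values (10 genes in 16 comparisons), 31 were called under all alternatives other than leaving out a replicate, and 28 without each replicate in turn; 18 values changed sign under such an alternative, none with an adjusted p under 0.05 in either fit. The number of members called in wild-type Acb loading went from 4 to 2 with the length trend removed, alone or with the replicate block, and in rpS6P-/- Acb loading from 3 to 5 with both. The replicate block raised it from 5 to 8 in the regional comparison of wild-type heavy fractions. The sources used here do not say whether equal numbers pair mice between regions. In loading the block alone changed no call but that of *Snrpn* in the wild-type DS. For genotype, 0 became 1 in Acb heavy fractions without a filter, with DESeq2 and with all 24 libraries in 1 fit (*Impact*), and 1 with DESeq2 in DS heavy fractions (*Nap1l5*) and DS lysates (*Peg3*). Leaving out a replicate gave 2 to 4 members in wild-type Acb loading, 2 to 3 in rpS6P-/- Acb loading, 2 to 3 and 2 in the DS, 6 to 8 and 5 to 7 in the regional comparison of wild-type and rpS6P-/- lysates, 3 to 7 (3 without wild-type Acb heavy replicate 3) and 7 in heavy fractions, 0 to 1 for genotype in DS lysates, and 0 in the other genotype comparisons and interactions. Calls over all genes ranged from 0 to 1090 for genotype in Acb heavy fractions (0 as reported, with DESeq2 size factors and with filterByExpr; 3 and 7 with the length trend removed, without and with the block; 98 with the block, 549 without a filter, 813 with all 24 libraries in 1 fit, and 1090 with DESeq2), from 0 to 6 in Acb lysates, 0 to 37 in DS heavy fractions, 0 to 95 in DS lysates, and from 1311 to 2431 between regions in wild-type heavy fractions; for loading by genotype they ranged from 0 to 110 in the Acb and 0 to 6 in the DS, for the genotype difference between regions from 0 to 479, and for wild-type loading between regions from 0 to 7. The cause was not tested. Depth limits *Magel2*, *Cdkn1c* and *Snrpn*. The ratio of *Peg10* to *Sgce* reads differed between regions by 2.39 (wild-type) and 2.11 (rpS6P-/-) log2 units in lysates and by 2.12 and 2.92 in heavy fractions.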
